A study of Mus musculus with 6 samples.

Results

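The noncoding RNAs *Malat1*, *Neat1*, *Tug1*, *Gas5*, *Snhg1* and *Snhg3* were followed through mRNA-seq libraries of mouse day 4 embryoid bodies (EBs). They were taken from the deposited table by gene symbol, and all 6 were found among its 15266 genes. The group was chosen by name and in part by the measured values of *Malat1*, which moved between libraries, so *Malat1* is described without a test. *Evx1as*, listed in the table as 5730457N03Rik, was read beside them as a long noncoding RNA that is part of the edited locus.

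The libraries came from 2 edited lines derived from W9.5 mouse embryonic stem cells, with 3 replicates of each. EVX1-Δfs (clone 14) carries small bi-allelic frameshift deletions in the part of *Evx1* that encodes the homeodomain, which leaves *Evx1as* transcribed. Del#3 carries the Evx1/Evx1asΔ2.6kb deletion, which takes out the alternative promoters and part of the exons of *Evx1as* and disrupts both genes. Both lines formed EBs in serum medium after withdrawal of LIF. EVX1-Δfs stands for 1 clone, and how many clones Del#3 stands for is not stated. Unedited W9.5 EBs were not analysed here, so each difference is between 2 edited lines. Lines compared with each other were set up on the same day, and each round of differentiation on a different day, so the replicate number was read as the day of set-up.

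Most of these RNAs never leave the nucleus or are made for what lies in their introns. *Malat1* is retained in nuclear speckles, compartments rich in splicing factors, and *Neat1* is the scaffold of the neighbouring paraspeckles. *Gas5*, *Snhg1* and *Snhg3* are host genes whose introns release small nucleolar RNAs (snoRNAs) that guide the modification or processing of ribosomal RNA, while their spliced exons have little coding potential and, for *Gas5* and *Snhg1*, are cleared by nonsense-mediated decay. *Tug1*, first found as a transcript raised by taurine in the retina, is a spliced long intergenic RNA.

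The 3′ ends and the snoRNAs show what sets these RNAs apart from an ordinary mRNA in a library made from poly(A)-selected RNA. The primary *Malat1* and *Neat1* transcripts are known to be cut by RNase P just after a genomically encoded A-rich tract, so that this tract takes the place of an added poly(A) tail, and a tRNA-like RNA follows the cut. The sequences below were read from the mouse genome build NCBIM37 (the assembly of mm9), 5′ to 3′ on the gene's strand. In the 3′ ends, the capitals mark the motif AAAAGCAAAA, which was searched on the gene's strand and occurred 1 time in each gene. They lie at chr19:5795912-5796091 and chr19:5824638-5824817, both on the minus strand.

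Malat1 3' end: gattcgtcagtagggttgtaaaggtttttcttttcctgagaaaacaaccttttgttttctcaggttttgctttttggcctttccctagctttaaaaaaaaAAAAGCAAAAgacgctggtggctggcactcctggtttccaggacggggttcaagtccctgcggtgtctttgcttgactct

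Neat1 3' end: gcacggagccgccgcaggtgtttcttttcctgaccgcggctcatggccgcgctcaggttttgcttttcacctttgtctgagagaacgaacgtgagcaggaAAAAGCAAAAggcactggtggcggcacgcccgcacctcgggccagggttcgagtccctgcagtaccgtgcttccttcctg

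The 2 ends differ in how much A they offer to an oligo(dT) bead. The longest run of A at the tract was 12 bases in *Malat1* and 5 bases in *Neat1*. In GENCODE vM1, the *Neat1* gene ends at the tract, whereas the *Malat1* gene runs 292 bases past it, with 1 AATAAA hexamer 21 bases before its annotated end. Of 3803 windows that hold the last 500 bases of an annotated noncoding gene, 17 (0.447%) contained the motif on the sense strand and 27 (0.71%) on either strand. A match describes these letters and not which end was captured.

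The snoRNAs below stand for the RNAs that the 3 host genes carry. The capitals mark the C box (TGATGA) and D box (CTGA) letters in SNORD74 and SNORD25, including internal copies, and the ACA that lies 3 bases from the 3′ end of Snora73a. SNORD74 lies inside *Gas5* at chr1:162965525-162965604 on the plus strand, SNORD25 inside *Snhg1* at chr19:8798486-8798550 on the plus strand, and Snora73a inside *Snhg3* at chr4:131908690-131908894 on the minus strand.

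SNORD74: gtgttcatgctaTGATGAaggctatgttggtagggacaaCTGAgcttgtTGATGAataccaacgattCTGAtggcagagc

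SNORD25: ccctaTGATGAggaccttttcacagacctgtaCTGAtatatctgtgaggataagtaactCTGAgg

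Snora73a: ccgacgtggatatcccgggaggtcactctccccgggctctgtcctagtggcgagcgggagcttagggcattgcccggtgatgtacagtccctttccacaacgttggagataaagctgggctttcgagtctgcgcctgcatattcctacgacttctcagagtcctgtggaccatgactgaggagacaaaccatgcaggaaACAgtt

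*Gas5* (chr1:162964553-162968670) held 9 annotated snoRNA genes, *Snhg1* (chr19:8797986-8800932) held 8 and *Snhg3* (chr4:131903929-131909601) held 2. The host models differ in how much of the locus they call exonic, which bears on what a read on the gene can be. The union of annotated exons covered 2947 of 2947 bp in *Snhg1*, 3760 of 4118 bp in *Gas5* and 986 of 5673 bp in *Snhg3*, so a read from an intron of *Snhg1* falls on an exon of some annotated transcript. *Malat1* (chr19:5795690-5802671) and *Neat1* (chr19:5824708-5845478) lie next to each other on the minus strand, and *Tug1* lies at chr11:3539797-3548815, also on the minus strand. The annotation used for the authors' counting is not given in the sources used here. Antisense models overlap *Malat1* (*Gm20417*) and *Snhg3* (*Gm17300*).

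Reads on listed genes ran from 9024579 to 15699124 per EVX1-Δfs library and from 9729013 to 12231851 per Del#3 library, and the deepest library of each line was replicate 1. Values are normalized counts, reads divided by the library's size factor. Markers of the labelled tissue were present, with primitive streak genes such as *T* (881 to 1350 normalized counts) and epiblast genes such as *Pou5f1* (4440 to 7890 normalized counts) in every library, while the neurectoderm markers *Sox1* and *Pax6* summed to at most 15 normalized counts. *Evx1*, the targeted gene, had 2660, 3670 and 3050 normalized counts in EVX1-Δfs and 38.3, 32.5 and 33.1 in Del#3.

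*Malat1* had 935, 308 and 297 normalized counts in EVX1-Δfs replicates 1, 2 and 3, and 1780, 532 and 505 in Del#3 replicates 1, 2 and 3. Replicate 1 was the high library of each line, and within each line replicates 2 and 3 lay close together. The ranges of the lines overlapped, because EVX1-Δfs replicate 1 exceeded Del#3 replicates 2 and 3. In both lines, replicate 1 stood above the mean of replicates 2 and 3, 3.09 times in EVX1-Δfs and 3.43 times in Del#3.

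*Neat1*, the paraspeckle RNA, had 195, 164 and 85.1 normalized counts in EVX1-Δfs and 274, 72 and 84.4 in Del#3. The replicate 1 libraries again held the highest value of each line, with EVX1-Δfs replicate 2 not far below. *Tug1* had 360, 65.6 and 66.2 normalized counts in EVX1-Δfs and 367, 107 and 190 in Del#3. The replicate 1 values of the lines were almost the same for *Tug1*, and both lay above the other 4 libraries.

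Among the snoRNA hosts, *Gas5* had 397, 287 and 210 normalized counts in EVX1-Δfs and 218, 123 and 278 in Del#3, and it was the member whose libraries followed neither line nor replicate number. *Snhg1* had 1070, 232 and 196 normalized counts in EVX1-Δfs and 913, 134 and 314 in Del#3. Its replicate 1 libraries stood far above the other 4. *Snhg3* ran the other way, with 243, 456 and 308 normalized counts in EVX1-Δfs and 124, 308 and 438 in Del#3, so that its lowest library in each line was replicate 1.

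*Evx1as* had 580, 689 and 675 normalized counts in EVX1-Δfs and 16.7, 25.5 and 32 in Del#3. Its lines did not overlap, and its replicate 1 libraries were the lowest of their lines. The ratio of *Malat1* reads to *Evx1as* reads was 1.61, 0.447 and 0.44 in EVX1-Δfs and 106, 20.8 and 15.8 in Del#3. Within EVX1-Δfs, *Malat1* was therefore above *Evx1as* in replicate 1 and below it in replicates 2 and 3.

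**Figure D1:**
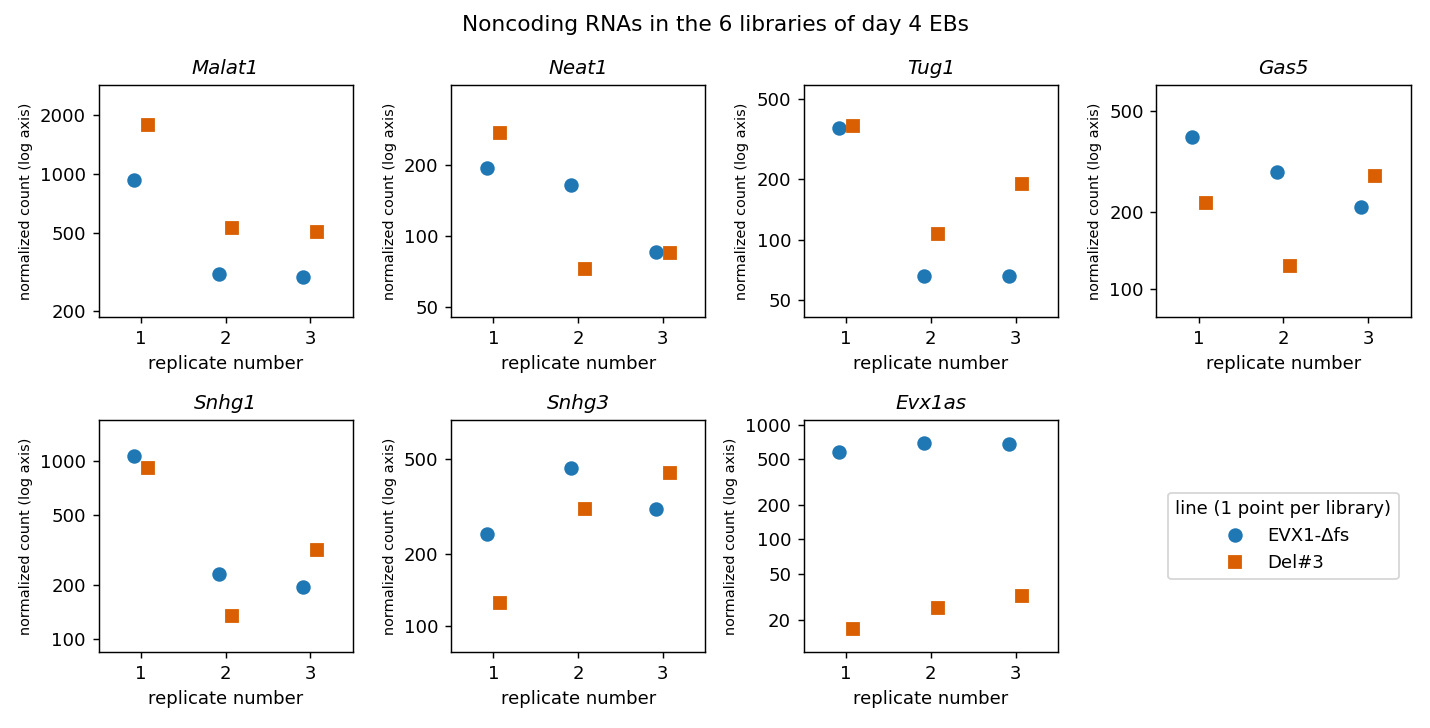
Normalized counts (log axis, its own range in each panel) of the 6 noncoding RNAs and *Evx1as* by replicate number, with 1 point per library, circles for EVX1-Δfs and squares for Del#3. Replicate 1 holds the highest *Malat1*, *Neat1*, *Tug1* and *Snhg1* values of both lines, whereas for *Evx1as* the lines are apart in every replicate.

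The first comparison asked whether loss of the *Evx1*/*Evx1as* sequence in Del#3, against the frameshift in EVX1-Δfs, went with a change in these RNAs. None of the 5 tested members passed the test, with 0 called by limma, edgeR or DESeq2. In the limma fit without the replicate block, 0 had an unadjusted p under 0.05. Across all genes, limma called 2 of 12891 tested genes (0.0155%) at an adjusted p under 0.05, *Evx1* and *Evx1as*, and 133 genes (1.03%) at an unadjusted p under 0.05. Blocking on the replicate number added *Grb10*, an imprinted growth regulator (log2 difference 1.71, limma adjusted p = 0.0197), for 3 genes in all (0.0233%). DESeq2 also called 3. Of the 5 tested members, 0 had lines that did not overlap, beside 3.51% of all tested genes.

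The *Malat1* mean of 3 libraries was 513 normalized counts in EVX1-Δfs, with an SD of 365, and 938 in Del#3, with an SD of 727. The log2 difference, Del#3 minus EVX1-Δfs, was 0.83. Within replicates 1, 2 and 3 it was 0.93, 0.78 and 0.77. These values had a part in the choice of *Malat1* and are given as a description.

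*Neat1*, the neighbour of *Malat1*, differed by -0.23 on the log2 scale (standard error, SE, 0.51), with pairs of 0.49, -1.18 and -0.01. *Tug1* differed by 0.74 (SE 0.65), with pairs of 0.03, 0.69 and 1.51, and by 0.45 in edgeR and 0.43 in DESeq2. Without 1 library the limma value ran from 0.29 without Del#3 replicate 1 to 1.55 without EVX1-Δfs replicate 1. The limma adjusted p was 1 for both, and 0.992 for both with the replicate block. The 95% intervals without the block were -1.37 to 0.90 for *Neat1* and -0.69 to 2.18 for *Tug1*. They include the spread between replicate numbers and leave room for differences of more than 1 log2 unit. With the block, the SE was 0.32 for *Neat1* and 0.29 for *Tug1*.

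The 3 host genes had values below 0 that did not pass the limma test. The log2 differences were -0.56 for *Gas5* (SE 0.36), -0.11 for *Snhg1* (SE 0.73) and -0.34 for *Snhg3* (SE 0.44), each with an adjusted p of 1, or 0.992 with the replicate block. Each was lower in Del#3 in replicates 1 and 2 and higher in replicate 3, where the pair differences were 0.40, 0.68 and 0.50. Without the block, the 95% intervals were -1.36 to 0.24, -1.73 to 1.5 and -1.32 to 0.63. With it, the SEs were 0.3, 0.27 and 0.28 in the same order. The sign for *Neat1*, *Snhg1* and *Snhg3* depended on single libraries: *Neat1* became 0.01, 0.12 and 0.01 without EVX1-Δfs replicate 1, Del#3 replicate 2 and Del#3 replicate 3, *Snhg1* became 0.66 and 0.55 without EVX1-Δfs replicate 1 and Del#3 replicate 2, and *Snhg3* became 0.18 without Del#3 replicate 1.

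*Evx1as* was lower in Del#3 by a log2 difference of -4.70 (SE 0.32, limma adjusted p = 0.000155), with pairs of -5.03, -4.70 and -4.35. Reads on deleted exon sequence cannot arise in Del#3, so this difference includes sequence missing from the genome. For the other RNAs in bulk EBs, fewer cells that make an RNA and less of it per cell cannot be told apart.

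**Figure D2:**
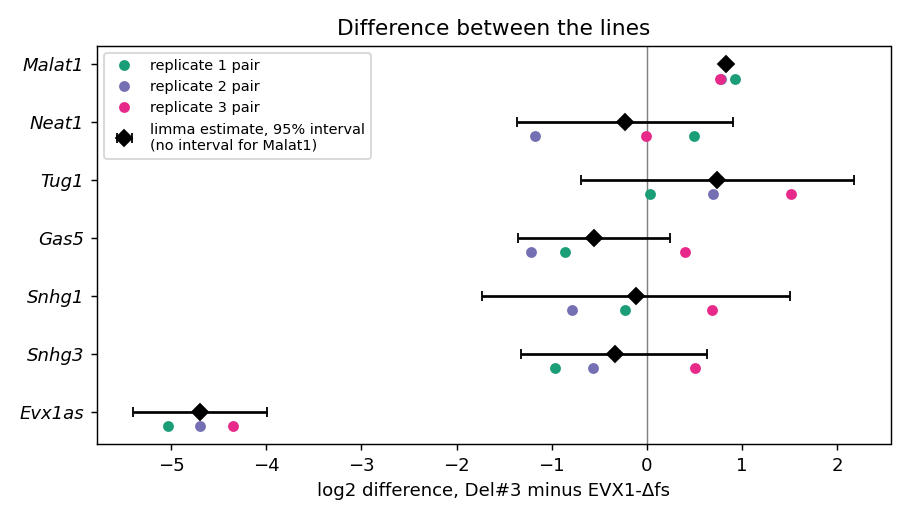
Difference between the lines in log2(normalized count + 1), Del#3 minus EVX1-Δfs, for each noncoding RNA. Diamonds are the limma estimates without the replicate block and bars their 95% intervals (none is drawn for *Malat1*, which was not tested). Coloured points are the differences within each replicate number. The intervals of the 5 tested members span 0, and that of *Evx1as* lies between -5.40 and -3.99.

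The second comparison asked how far the replicate number, read as the day of set-up, accounted for the spread of these RNAs. *Snhg1* and *Tug1* differed between replicate numbers, both highest in replicate 1, whereas *Neat1*, *Gas5* and *Snhg3* did not pass. In a limma model with line and replicate number, the adjusted p for replicate number was 0.0238 for *Snhg1* and 0.035 for *Tug1*, and edgeR gave 0.0269 and 0.039. It was 0.106 for *Neat1*, 0.113 for *Snhg3* and 0.446 for *Gas5*. Hence 2 of the 5 tested members were called, beside 546 of all tested genes (4.24%), of which 459 were higher and 87 lower in replicate 1 of both lines. By edgeR the same 2 members were called, beside 3.58% of all tested genes. At an unadjusted p under 0.05, 4 of 5 members passed, beside 27.7% of all tested genes.

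On the log2 scale, *Snhg1* replicate 1 exceeded the mean of replicates 2 and 3 by 2.32 in EVX1-Δfs and 2.15 in Del#3, 5 times and 4.08 times in normalized counts. *Tug1* exceeded it by 2.43 and 1.36. The difference of *Snhg1* was higher than that of 99.9% of tested genes, averaged over both lines, and that of *Tug1* higher than 99.2%. *Malat1*, described only, exceeded the mean of replicates 2 and 3 by 1.63 and 1.78, above 98.5% of tested genes.

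The remaining members had smaller steps in EVX1-Δfs. The replicate 1 difference of *Neat1* was 0.72 in EVX1-Δfs and 1.80 in Del#3, and that of *Gas5* was 0.69 and 0.24. *Snhg3* was the only member below 0 in both lines, at -0.62 and -1.56, a difference lower than in all but 1.75% of tested genes. Of the 5 tested members, *Neat1*, *Tug1* and *Snhg1* had both replicate 1 libraries above all 4 other libraries, as in 22.2% of all tested genes, and *Snhg3* had both below, as in 22.7%. A step of more than 1 log2 unit upward in both lines was seen in *Tug1* and *Snhg1*, beside 5.59% of all tested genes, and such a step downward in 0 of the 5, beside 1.08%.

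**Figure D3:**
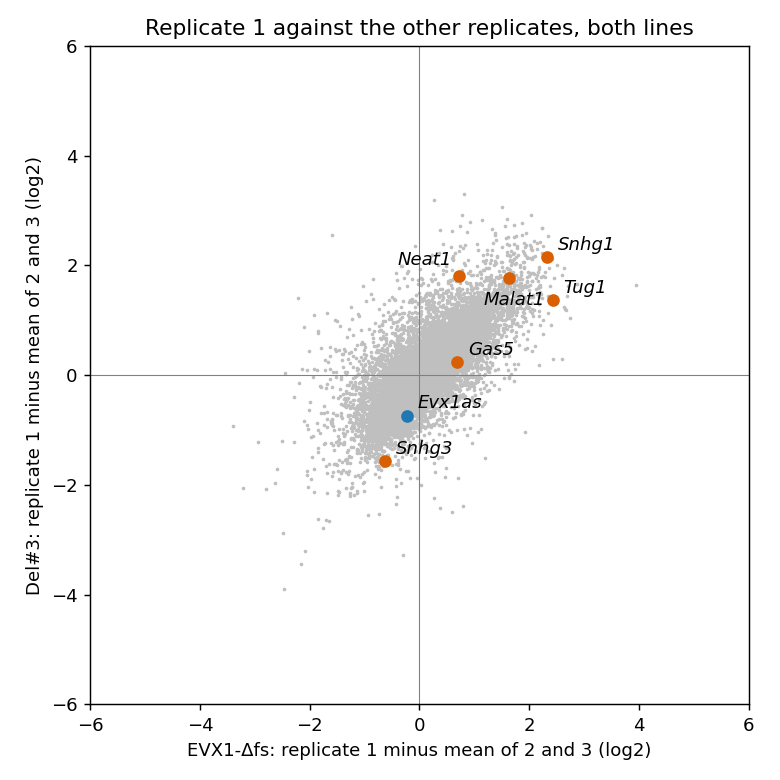
Replicate 1 minus the mean of replicates 2 and 3 in log2(normalized count + 1), EVX1-Δfs on the horizontal axis and Del#3 on the vertical axis, for all 12891 tested genes (grey), the 6 members (orange) and *Evx1as* (blue). *Snhg1*, *Tug1*, *Malat1* and *Neat1* lie to the upper right, *Snhg3* at the lower left and *Gas5* near the middle of the cloud.

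Split by source, the replicate number held 92.4% of the variance of *Snhg1* on the log2 scale, 78.9% of *Malat1*, 78.3% of *Tug1*, 73.5% of *Neat1* and 67.8% of *Snhg3*. The line held 20.9% for *Malat1*, leaving 0.155% to neither. *Gas5* was spread over all sources, with 29.2% for line, 26% for replicate number and 44.8% for the rest. Over all tested genes the shares were 13.7%, 60.5% and 25.8%, so a large share for replicate number was common in these libraries. For *Evx1as* the line held 98.7%.

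The call for *Snhg1* was kept in all 13 alternative fits, with adjusted p from 4.4e-06 to 0.043. A fit without 1 library leaves 1 residual degree of freedom, and the lone library of its replicate number is fitted exactly, so the spread comes from the other pairs and from limma's pooling over genes. The members called numbered 5 of 5 without replicate 3 of either line, 3 without replicate 2 of either line and 1 without EVX1-Δfs replicate 1. The share called over all tested genes moved with them, to 18.3% and 24.2% without replicate 3 of EVX1-Δfs and Del#3, 16.9% and 11.1% without replicate 2, and 1.5% and 1.62% without replicate 1. The call for *Tug1* was lost with total-read scaling (0.0539) and without EVX1-Δfs replicate 1 (0.217). Replicate number, day of set-up and depth cannot be told apart here, because replicate 1 was the deepest library of both lines.

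The genes on either side of *Snhg1* had replicate 1 differences near 0. *Slc3a2*, a heavy chain of amino acid transporters whose gene lies 127 bp away, differed by 0.06 in EVX1-Δfs and -0.18 in Del#3, and *Wdr74*, a ribosome assembly factor 9397 bp away, by 0.04 and -0.21. Beside *Malat1* and *Neat1*, *Frmd8* differed by -0.09 and -0.31. *Morc2a*, 682 bp from *Tug1*, differed by 0.76 and 0.81 (limma adjusted p = 0.0814), and *Smtn* on the other side by 0.21 and 0.48. Beside *Gas5*, *Rc3h1*, an RNA-binding repressor of mRNAs, differed by 1.39 and 1.32 (limma adjusted p = 0.0485). Beside *Snhg3*, *Trnau1ap* differed by -0.71 and -0.98 and *Phactr4* by 0.55 and 0.19.

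Exonic length and GC content moved with the replicate 1 step over all genes. The median difference ran from -0.18 in EVX1-Δfs and -0.33 in Del#3 in the shortest of 5 equal length groups to 0.31 and 0.41 in the longest, and from 0.50 in both lines in the lowest GC group to -0.15 and -0.17 in the highest. *Malat1*, *Neat1* and *Tug1* were in the longest group, and 5 of the 6 members, all but *Neat1*, were in the lowest GC group. Less the median of the genes that share both its length and its GC group, the difference in EVX1-Δfs and Del#3 was 1.88 and 1.89 for *Snhg1*, 1.88 and 0.66 for *Tug1*, 1.08 and 1.08 for *Malat1*, 0.39 and 1.36 for *Neat1*, 0.25 and -0.19 for *Gas5* and -1.03 and -1.72 for *Snhg3*. The part of length and GC in the result was not tested.

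**Figure D4:**
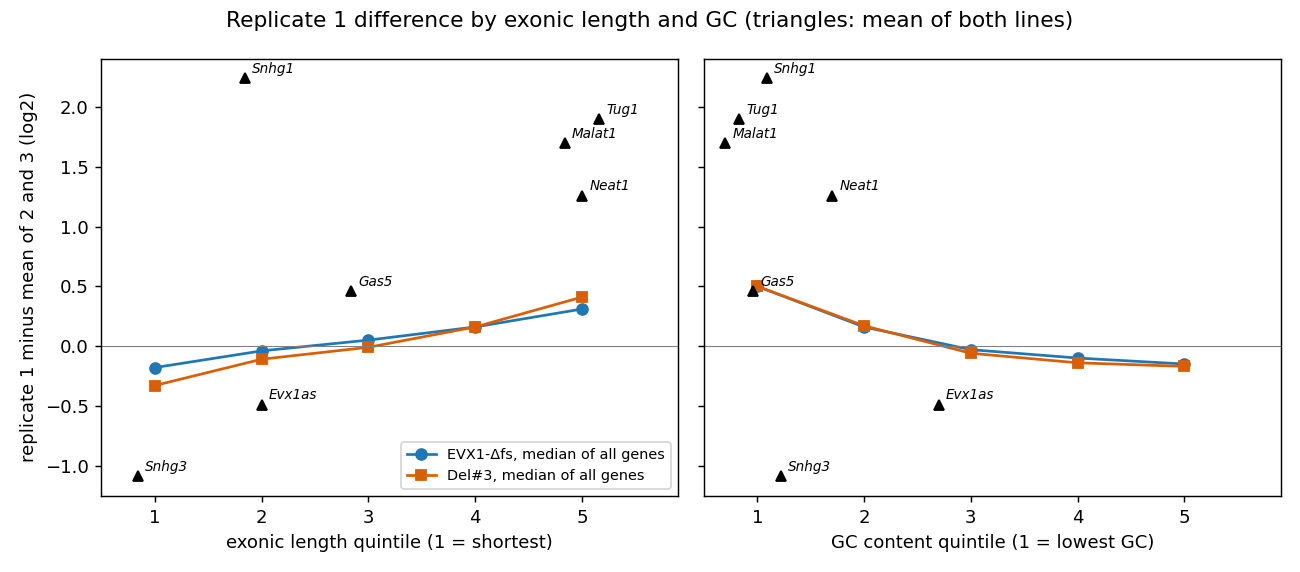
Replicate 1 minus the mean of replicates 2 and 3 (log2) against exonic length (left) and GC content (right) in 5 equal groups of 2447 genes. Lines join the medians of all genes for each line, triangles are the members' means over both lines, spread sideways within a group for legibility. *Snhg1*, *Tug1* and *Malat1* lie more than 1 log2 unit above the medians of their groups.

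Set on a common scale of RPM (reads scaled to the library's total on listed genes) per kilobase (kb) of annotated exon, the RNAs were not uniformly abundant. *Snhg3* had the highest mean, with 31.7 ± 10.6 in EVX1-Δfs and 27.6 ± 14.8 in Del#3 (SD, n = 3). *Snhg1* followed with 16.1 ± 16.4 and 15.3 ± 14.6, a spread as large as its mean. Their order turned in replicate 1, where *Snhg1* had 35 in EVX1-Δfs and 31.8 in Del#3 against 23.8 and 12.9 for *Snhg3*, while in replicates 2 and 3 *Snhg3* was the higher in both lines. The exon length of *Snhg1* used here includes its introns, and a shorter counted model would raise its value. *Malat1* had 6.96 ± 5.18 and 13.3 ± 11.1, *Gas5* 7.46 ± 2.63 and 5.3 ± 2.15, and *Tug1* 2.34 ± 2.48 and 3.26 ± 2.17. *Neat1* had the lowest mean, at 0.673 ± 0.28 and 0.683 ± 0.583.

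*Snhg3* and *Snhg1* were above 82.2% and 70.7% of 12235 genes on that scale, whereas *Malat1* was above 60.4% and *Neat1* above 9.58%. *Neat1* has a long annotated transcript of 20771 bases and one of 3004 bases, and it is the short form that is known to be polyadenylated. Divided by the 3004 bases, *Neat1* had 4.65 ± 1.93 and 4.72 ± 4.03 RPM per kb (SD, n = 3), so its place depends on which form the reads came from. In EVX1-Δfs no neighbours in the order of the 6 members differed by more than the larger of their SDs, and in Del#3 *Tug1* and *Neat1* did. *Evx1as* had 20 ± 1.53 in EVX1-Δfs, between *Snhg3* and *Snhg1*, and 0.778 ± 0.224 in Del#3, where part of the exon length divided by is deleted. Levels of *Malat1* and *Neat1* in a poly(A)-selected library are those of the molecules that the selection kept.

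The genes most like each member were found by the root mean square (RMS) difference of log2 values, each gene centred on its mean over the 6 libraries, among 9122 other genes with a mean of at least 100 normalized counts. For *Malat1* they were *Rad50* (0.14), a DNA double-strand break repair protein, and the ubiquitin proteases *Usp32* (0.16) and *Vcpip1* (0.16). For *Tug1* they were *Pank3* (0.18), an enzyme of coenzyme A synthesis, *AW549877* (0.20) and *Birc6* (0.20). For *Snhg1* they were *2700049A03Rik* (0.24), *Paip1* (0.29) and *Zc3h7a* (0.31). These 9 genes also stood high in replicate 1 of both lines, such as *Rad50* with 1.46 in EVX1-Δfs and 1.78 in Del#3.

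For *Neat1* the most alike were *Lima1* (0.21), *Tenc1* (0.25) and *Chchd10* (0.26), and for *Gas5* *Cd164* (0.08), *Prkd1* (0.17) and *Zfp365* (0.20). *Snhg3* was most like *Tmem218* (0.19), the cardiac actin *Actc1* (0.21) and *Pddc1* (0.23), which were low in replicate 1. Between members, *Malat1* and *Tug1* were closest (0.40), then *Tug1* and *Snhg1* (0.52), and the snoRNA hosts *Snhg1* and *Snhg3* were farthest apart (1.6). These are descriptions over 6 libraries that share the replicate 1 step.

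The wider families around these RNAs were read from lists. Between the lines, 0 of their 221 tested genes were called by limma, with or without the replicate block, by edgeR or by DESeq2. Without the block, 1 had an unadjusted limma p under 0.05, the decay factor *Upf2*, beside 1.03% of all tested genes. Among 9 other noncoding snoRNA host genes, 1 was called between replicate numbers, beside 4.24% of all tested genes, *Snhg8* (limma adjusted p = 0.0266), with 282, 672 and 691 normalized counts in EVX1-Δfs and 141, 697 and 617 in Del#3. *Snhg8* was low in replicate 1, like *Snhg3* and unlike *Snhg1*, and its call was not kept without Del#3 replicate 1. The median replicate 1 difference of these hosts was 0.06 in EVX1-Δfs and -0.08 in Del#3, beside 0.06 and 0.02 over all tested genes. Single hosts lay on both sides, from *Snhg4* (1.47 and 0.91) to *Snhg8* (-1.27 and -2.21). *Snhg5* and *1500012F01Rik*, the hosts with the highest means, differed by 0.06 and -0.23, and by -0.44 and -0.34.

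Of 16 other long noncoding RNAs, 0 were called by limma or edgeR between replicate numbers and 6 had an unadjusted limma p under 0.05, beside 27.7% of all tested genes, with medians of 0.46 and 0.74. Without 1 library, limma called 0 to 9 of them, 9 without Del#3 replicate 3, where 24.2% of all tested genes were called. The most abundant were imprinted RNAs. *H19* had 32000 to 47900 normalized counts and differed by 0.03 and -0.11, while *Rian* (0.85 and 1.37, limma adjusted p = 0.0522) and *Meg3* (0.53 and 1.19, 0.128) had values further from 0.

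Nuclear speckle proteins share the compartment of *Malat1*. Of 23 such genes, limma and edgeR each called 7 between replicate numbers, beside 4.24% and 3.58% of all tested genes. No match in exonic length or GC content was made. All 7 were higher in replicate 1 of both lines. They were *Son*, a scaffold of the speckle, with 1.14 and 1.16, the splicing factors *Pnn* (1.38 and 1.63), *Sf3b1* (1.31 and 1.33) and *Rbm25* (1.59 and 1.61), the kinases *Prpf4b* (1.52 and 1.90) and *Clk1* (1.84 and 1.28), and *Bclaf1* (1.70 and 1.89), with adjusted p from 0.0225 to 0.0292. The list's medians were 0.71 and 0.47, and in 15 of 23 both replicate 1 libraries were above the other 4, beside 22.2% of all tested genes. Not every speckle gene had such values, as *Srsf2* differed by -0.01 and -0.25 and *Thrap3* by 0 and 0.18. The count was 6 without EVX1-Δfs replicate 1, 5 without Del#3 replicate 1 and 10 to 13 without any other library, beside 1.5%, 1.62% and 11.1% to 24.2% of all tested genes.

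Of 21 paraspeckle proteins, 2 were called, *Pspc1* (0.88 and 1.13, limma adjusted p = 0.0464) and *Taf15* (1.12 and 1.41, 0.0415), beside 4.24% of all tested genes, and edgeR put *Pspc1* at 0.0558. The count was 0 without either replicate 1 library and 6 to 9 without any other, where 11.1% to 24.2% of all tested genes were called. The paraspeckle core proteins *Nono* (0.20 and 0.25) and *Sfpq* (0.17 and 0.05) did not pass. Of 12 nonsense-mediated decay factors, 1 was called beside the same 4.24%, the kinase *Smg1* (1.24 and 1.31, limma adjusted p = 0.0238). The helicase *Upf1*, at the centre of that pathway, differed by -0.12 and -0.28. Without Del#3 replicate 1, 0 decay factors were called, and without any other library 1 to 4, beside 1.62% and 1.5% to 24.2% of all tested genes.

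Of 18 snoRNP proteins, which package the snoRNAs, 0 were called by limma or edgeR and 5 had an unadjusted limma p under 0.05, beside 27.7% of all tested genes. Without 1 library, limma called 0 to 4 of them, 4 without EVX1-Δfs replicate 2, beside 1.5% to 24.2% of all tested genes over these fits. The most abundant, *Ruvbl2*, *Nop56* and *Fbl*, lay between -0.52 and -0.18. Of 13 enzymes of *Malat1* 3′ end processing, such as the RNase P subunit *Pop1* (0.46 and 0.44) and the tRNA 3′ nuclease *Elac2* (0.33 and 0.19), again 0 were called by either tool, and 3 had an unadjusted limma p under 0.05, while without 1 library limma called 0 to 2. In those fits 1.5% to 24.2% of all tested genes were called. The medians of these lists were -0.04 and -0.21, and 0.02 and -0.33.

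Cytosolic ribosomal protein genes, whose mRNAs share a pyrimidine-rich 5′ end with *Gas5* and *Snhg1*, had median replicate 1 differences of -0.28 in EVX1-Δfs and -0.55 in Del#3, with genes on both sides of 0. Of 75, limma called 7 and edgeR 4, beside 4.24% and 3.58% of all tested genes. Of the 7, 6 were lower in replicate 1 (*Rpl34*, *Rpl37*, *Rps12*, *Rps26*, *Rps28* and *Rps29*) and *Rps24* was higher, at 1.07 and 1.14. The limma count was 2 without EVX1-Δfs replicate 1, 0 without Del#3 replicate 1 and 17 to 32 without any other library, where 11.1% to 24.2% of all tested genes were called. In 35 of 75 both replicate 1 libraries were below the other 4, beside 22.7% of all tested genes, and the list's summed level was 1200000 in EVX1-Δfs replicate 1 and 912000 in Del#3 replicate 1, the lowest of each line, against highs of 1670000 and 1490000. Of 16 histone genes tested, most of whose mRNAs lack a poly(A) tail, 0 were called by limma or edgeR and 3 had an unadjusted limma p under 0.05, beside 27.7% of all tested genes, with medians of -0.42 and -0.65.

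Marker lists of the cell types in EBs were set beside the step. The summed level of 7 streak and mesoderm markers was lowest in replicate 1 of both lines, at 7840 in a range of 7840 to 9840 in EVX1-Δfs and 6650 in a range of 6650 to 9890 in Del#3. *Eomes* had the highest mean of that list, and in 2 of its 7 genes were both replicate 1 libraries below the other 4, beside 22.7% of all tested genes, with list medians of -0.06 and -0.13. That of 3 endoderm markers was also lowest there, at 3040 and 2400. Epiblast markers were lowest in EVX1-Δfs replicate 1 (8200) but not in Del#3 replicate 1 (9140 in a range of 6390 to 10300). Of these genes and 4 blood and endothelium markers, limma and edgeR called 0 between replicate numbers, and 2 streak, 1 endoderm, 1 epiblast and 1 blood marker had an unadjusted limma p under 0.05, beside 27.7% of all tested genes. Without 1 library, limma called 0 to 2 streak markers, 0 to 1 endoderm, 0 to 1 epiblast and 0 to 1 blood marker, each count being 0 without replicate 1 of either line, beside 1.5% to 24.2% of all tested genes over these fits. Their part in the step of the noncoding RNAs was not tested.

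**Figure D5:**
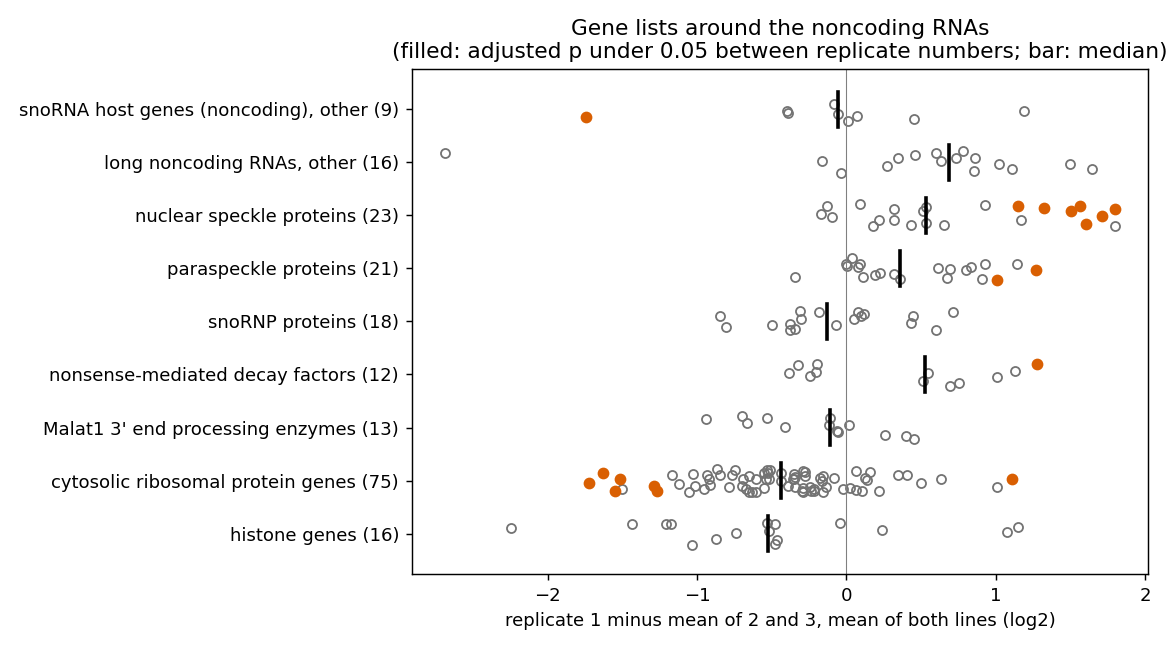
Replicate 1 minus the mean of replicates 2 and 3 (log2, mean of both lines) for each tested gene of 9 lists, with the number of genes in brackets. Filled points passed an adjusted p of 0.05 between replicate numbers and bars are medians. The 7 filled nuclear speckle genes lie above 1 and 6 of the 7 filled ribosomal protein genes lie below -1.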

How the data were processed

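D4 EBs of EVX1-Δfs and Del#3 were profiled by mRNA-seq, with 3 replicates of each. RNA was poly(A)-selected and sequenced on an Ion Proton. For mapping to mm9 the authors used TopHat2 followed by TMAP, for counting HTSeq at standard settings, and for testing DESeq2. The signal values the authors deposited are these counts divided by size factors (1.52, 0.853 and 0.846 for EVX1-Δfs, 1.25, 0.861 and 0.936 for Del#3). In each library 100% of values were whole multiples of 1 step (tolerance 0.01 reads), and reads were recovered by that step.

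The main test was limma (version 3.58.1, R 4.3.3) fitted with its trend option to log2(normalized count + 1). Fold changes are on this scale, which understates those of low genes. filterByExpr of edgeR (version 4.0.16; minimum count 10) kept 12891 genes, all 6 members among them, and p-values were adjusted by Benjamini-Hochberg at 0.05. Replicate numbers were tested by an F test in a model with line. Alternatives were edgeR's quasi-likelihood test, on which the recovered reads gave 2 genes between the lines, DESeq2 (version 1.42.0, 3 genes), pseudocounts of 0.1 and 5, TMM, total reads, other filters, the replicate block and leaving out each of the 6 libraries. Leaving out both replicate 1 libraries was added after seeing the data. The fits were tested on simulated data. Deviations of same-numbered libraries from their line means correlated at 0.74, 0.32 and -0.05 for replicates 1, 2 and 3 over 12891 genes. The pairing itself comes from the study's statement that compared samples were set up together and replicates on different days.

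Lengths, loci and sequences came from GENCODE vM1 and NCBIM37, and 94.9% of tested genes matched. Named genes were the members, *Evx1as*, the 3 most alike of each member, its nearest tested neighbours (some are not reported here) and, of each list, those past the threshold or else the highest 3. *Evx1*, *Grb10*, *Srsf2*, *Thrap3*, *Nono*, *Sfpq*, *Upf1*, *Pop1*, *Elac2* and the markers named were added with their values in view. So were *Snhg4*, *Snhg5*, *1500012F01Rik* and *Upf2*. The members and lists were chosen with earlier results of these data known. Reads are not independent molecules, and the spread between 3 libraries of 1 edited line sets the precision.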

Additional observations from a re-analysis of the deposited data

How the results depend on the processing

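With 3 libraries per line and no replicate block, each tested member's 95% interval included a difference of 1 log2 unit in at least 1 direction. With the block, the SEs of these members were smaller, from 0.27 for *Snhg1* to 0.32 for *Neat1*, and no interval was computed. Between the lines, 2 or 3 genes were called in all 17 alternatives, and 0 genes of the wider lists. None of the 5 tested members was called in any of them. The replicate block gave 3 genes in limma and changed no other call. With both replicate 1 libraries left out, the differences were 0.78 for *Malat1*, -0.59 for *Neat1*, 1.10 for *Tug1*, -0.41 for *Gas5*, -0.06 for *Snhg1* and -0.03 for *Snhg3*. Leaving out 1 library at a time gave ranges of 0.23 to 1.37 for *Malat1*, -0.83 to 0.12 for *Neat1*, 0.29 to 1.55 for *Tug1*, -0.81 to -0.23 for *Gas5*, -0.83 to 0.66 for *Snhg1*, -0.73 to 0.18 for *Snhg3* and -4.90 to -4.45 for *Evx1as*. The signs that turned were those of *Neat1*, *Snhg1* and *Snhg3* named in the report, and the cause was not tested.

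Between replicate numbers, 546 genes became 334 with TMM factors, 317 with total reads, and 197 to 3175 without 1 library, lowest without EVX1-Δfs replicate 1 (197) or Del#3 replicate 1 (211) and highest without Del#3 replicate 3 (3175). Without EVX1-Δfs replicate 2, EVX1-Δfs replicate 3 and Del#3 replicate 2 the counts were 2217, 2401 and 1453. The 18 listed genes called between replicate numbers became 6 to 74, with 6 without Del#3 replicate 1 and 10 without EVX1-Δfs replicate 1. Members that passed only without 1 library were *Neat1* (0.00885 to 0.0275 without either line's replicate 2 or 3), *Gas5* (0.0416 without EVX1-Δfs replicate 3 and 0.0455 without Del#3 replicate 3) and *Snhg3* (0.000775 and 0.00758 without the same libraries), all limma adjusted p. The cause was not tested. Scaling kept the sign of every member's replicate 1 difference, while the median of all genes moved from 0.06 and 0.02 to 0.13 and 0.17 with total reads.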
